A study of Mus musculus with 2 samples.

Results

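Tcf7, Lef1, Bach2, Klf2, Id3, Ccr7, S1pr1, Il7r and Slamf6 are 9 regulators and receptors of naive and memory T cells, and their RNA was followed here in the T cells of subcutaneous mouse tumours. They are a fixed list of names, with no threshold on a measured level, drawn up with earlier results of these data known, and all 9 were found among the 32285 genes of the deposited matrices. The tumours came from mice fed a diet free of serine and glycine (the SG library) or a control diet (the CT library), and nothing else distinguishes the groups in the labels. Each diet had 1 single-cell library, read both for gene expression and for T cell receptor (TCR) sequence. The tumour line, the strain, age and sex of the mice, and how many animals were pooled are not given in the sources used here. The extraction text describes a human heart sample, but mouse tumours are named in the other labels and the genes are mouse genes.

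Levels were measured in cells with a TRB contig, an assembled TCR beta chain sequence. These were 243 of 7999 barcodes in the SG library and 242 of 8466 in the CT library. A cell was called CD8 where its Cd8a and Cd8b1 UMIs (unique molecular identifiers, counted once per captured RNA) outnumbered its Cd4 UMIs, and CD4 where the reverse held. Cells of a deposited clonotype, a group of barcodes with the same receptor, of at least 2 barcodes were called expanded and the others unique. The SG library then held 139 expanded CD8 cells in 11 clones, 27 unique CD8 cells, 3 expanded CD4 cells and 29 unique CD4 cells. The CT library held 25 expanded CD8 cells in 10 clones, 44 unique CD8 cells, 11 expanded CD4 cells and 45 unique CD4 cells. A further 45 SG cells and 117 CT cells stayed uncalled, nearly all of them (45 and 116) because they had no Cd8a, Cd8b1 or Cd4 UMI.

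T cells that have not met antigen, and memory cells that persist after it, are kept in a quiescent and recirculating state by a shared group of genes. The transcription factors TCF1 (encoded by Tcf7) and LEF1 bind related DNA sites and maintain naive, memory and stem-like cells. BACH2 represses effector genes, KLF2 drives the genes of trafficking and quiescence, and ID3 blocks E protein transcription factors. CCR7 guides cells to lymph nodes, S1PR1 lets them leave tissue for lymph and blood, and the interleukin-7 receptor chain IL7R carries a survival signal. SLAMF6, a SLAM family receptor, marks the stem-like cells among exhausted T cells.

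With 1 library per diet there is no replicate check of any difference, no test between groups was made, and no p-value is given. Each level is the group's summed UMIs scaled to counts per 1000000 UMIs (CPM), with TCR and immunoglobulin genes left out of the total, and its 95% exact Poisson interval covers counting error only. Each ratio has a 95% exact conditional binomial interval of the same limited meaning. The median depth was 8585 UMIs per expanded and 6117 per unique CD8 cell in the SG library, against 2727 and 4260 in the CT library. Cd3d, Cd3e or Cd3g was detected in 99.6% of SG and 97.5% of CT TRB cells, and no TRB barcode was shared between the libraries, although 104 of all barcodes were. Cells with more than 20000 UMIs numbered 28 and 22, and doublets were not removed.

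The receptor sequences of the clones that carry most of the CD8 results are printed first, since several values below come from a single clone. Each is the TRB CDR3 from the deposited contigs, 5′ to 3′, encoded on chromosome 6. Lower case marks the ends that at least as many of the other CDR3s of the same V or J gene share as not. Capitals mark the letters between these ends. They can include V or J gene bases, since no germline sequence was aligned.
SG clonotype 1 (TRBV19, TRBJ2-1): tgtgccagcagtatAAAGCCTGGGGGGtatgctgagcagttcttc
SG clonotype 2 (TRBV10, TRBJ2-2): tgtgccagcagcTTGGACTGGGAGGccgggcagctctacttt
SG clonotype 3 (TRBV31, TRBJ1-5): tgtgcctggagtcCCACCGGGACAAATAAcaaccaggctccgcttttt
SG clonotype 8 (TRBV5, TRBJ1-3): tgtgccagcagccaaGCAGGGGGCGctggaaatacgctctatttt
CT clonotype 1 (TRBV1, TRBJ2-7): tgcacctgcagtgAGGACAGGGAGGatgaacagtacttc
CT clonotype 3 (TRBV12-2+TRBV13-2, TRBJ2-3): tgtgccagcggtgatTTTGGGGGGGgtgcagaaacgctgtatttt
SG clonotype 1 alone held 61 CD8 cells, and SG clonotypes 2, 3 and 8 held 19, 15 and 4. The largest CT clones held 4 CD8 cells each. The expanded SG cells are therefore the cells of a few clones, and not independent samples of expanded cells.

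In CD8 cells, the paired factors Tcf7 and Lef1 were the members that differed most between the diets, both lower in the SG library. Ccr7 and Il7r were not lower with them. Tcf7 had 16 UMIs or 8.45 CPM (4.83 to 13.7) in the 166 SG CD8 cells, against 20 UMIs or 42.3 CPM (25.8 to 65.3) in the 69 CT CD8 cells, a ratio of 0.20 (0.0968 to 0.406). Lef1 had 13 UMIs or 6.87 CPM (3.66 to 11.7) in the SG cells, against 24 UMIs or 50.7 CPM (32.5 to 75.5) in the CT cells, a ratio of 0.135 (0.0633 to 0.276). The intervals of the levels did not overlap for either gene. Tcf7 was detected in 11 of 166 SG and 13 of 69 CT CD8 cells, and Lef1 in 11 and 17.

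Among the other factors, Klf2 was at 335 CPM (309 to 362) in SG and 524 CPM (461 to 594) in CT CD8 cells, a ratio of 0.639 (0.551 to 0.743). Bach2 was at 34.3 CPM in SG cells against 48.6 CPM in CT cells, and its ratio of 0.706 (0.433 to 1.19) had an interval that held 1, as did that of Id3 (15.3 against 16.9 CPM, 0.905, 0.404 to 2.29). Slamf6 had 12 and 9 UMIs and a ratio of 0.333 (0.129 to 0.895), while S1pr1, with 6 and 4 UMIs, was too rare for a ratio to be read (0.375, 0.0889 to 1.80). The homing receptor Ccr7 was at 63.9 CPM (53.0 to 76.4) in SG cells and 46.5 CPM (29.2 to 70.4) in CT cells. Il7r was at 65.5 CPM (54.5 to 78.1) and 46.5 CPM (29.2 to 70.4). Their ratios of 1.37 (0.867 to 2.27) and 1.41 (0.890 to 2.33) had intervals that held 1.

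Counted with 10 CPM added to each level, 2 of 9 members were at least 2-fold lower in SG CD8 cells, where 1.7% of 9143 genes with at least 30 UMIs over all TRB cells were so. None was at least 2-fold higher, against 1.96% of genes, and the median log2 ratio of the members was -0.49, against -0.03 over all those genes. All 9 members passed that filter. The 2 members are Tcf7 and Lef1, and their count became 0 when 50 CPM was added in place of 10, since both are at low levels. The CD8 groups differed in makeup, since 139 of 166 SG cells were expanded, against 25 of 69 CT cells. When each clone counted equally in place of each UMI, the Tcf7 ratio was 1.12 and the Klf2 ratio 2.19, both on the other side of 1.

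**Figure D1:**
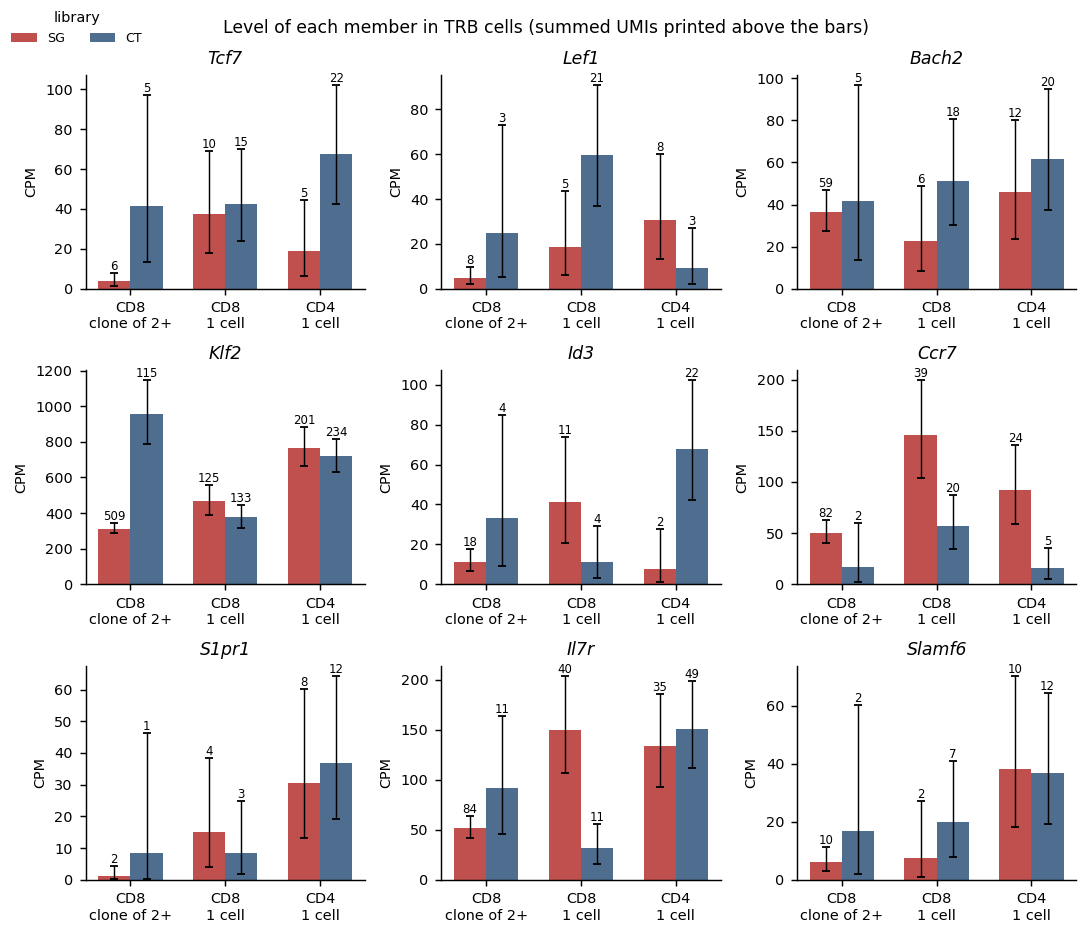
Level of each of the 9 members in CPM (vertical axis, from 0) in expanded CD8, unique CD8 and unique CD4 cells of the SG library (red, left) and the CT library (blue, right). Bars are summed levels, lines are 95% Poisson intervals of counting error, and the numbers are summed UMIs. Tcf7 stands at 3.69 CPM in expanded SG CD8 cells, against 41.5 CPM in expanded CT CD8 cells, and at 37.4 and 42.5 CPM in unique SG and CT CD8 cells.

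Unique CD8 cells compare the diets without the deposited clonotypes of at least 2 barcodes. Cells that share a TRB chain with such a clonotype can still be in this group. Grouping by TRB V gene and CDR3 moved its summed ratio, as given under processing. In unique CD8 cells Il7r, Ccr7 and Id3 were higher in the SG library and Lef1 was lower. Il7r had 40 UMIs or 150 CPM (107 to 204) in 27 SG cells, against 11 UMIs or 31.2 CPM (15.6 to 55.8) in 44 CT cells, a ratio of 4.80 (2.42 to 10.4). Ccr7 had 39 UMIs or 146 CPM (104 to 199) in SG cells, against 20 UMIs or 56.7 CPM (34.6 to 87.6) in CT cells, a ratio of 2.57 (1.46 to 4.66). The Il7r UMIs were spread over 14 SG and 8 CT cells, and those of Ccr7 over 7 cells in each library, with at most 14 in a single SG cell.

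Id3 had 11 UMIs in SG and 4 in CT unique CD8 cells, 41.1 against 11.3 CPM, a ratio of 3.63 (1.07 to 15.6). Lef1 had 5 and 21 UMIs, 18.7 against 59.6 CPM, a ratio of 0.314 (0.0925 to 0.856). Tcf7 had 10 UMIs or 37.4 CPM in SG cells and 15 UMIs or 42.5 CPM in CT cells, and its ratio of 0.879 had an interval from 0.353 to 2.09, which leaves room for a difference of either sign. Bach2 (6 and 18 UMIs, ratio 0.440, 0.143 to 1.16), Slamf6 (2 and 7 UMIs), S1pr1 (4 and 3 UMIs) and Klf2 (468 and 377 CPM, ratio 1.24, 0.963 to 1.60) all had intervals that held 1. At least 2-fold differences were found for 3 members higher, against 6.02% of genes, and 1 lower, against 4.51%. Macrophage and monocyte markers (C1qa, C1qb, C1qc, Csf1r, Lyz2 and Cd68) summed to 11.2 CPM in SG and 2212 CPM in CT unique CD8 cells, with 470 of the 780 CT UMIs in a single cell. Without any cell that held such a UMI, the ratios were 4.04 for Il7r, 2.37 for Ccr7 and 0.32 for Lef1, and that of Klf2 was 1.80 (1.34 to 2.44). The epithelial tumour markers Krt20, Epcam, Krt8, Krt18 and Krt19 summed to 273 CPM in SG and 85.1 CPM in CT unique CD8 cells. The fibroblast markers Col1a1, Col1a2, Dcn and Pdgfra summed to 498 and 272 CPM. The part of tumour cell or fibroblast RNA in these ratios, that of Id3 among them, was not tested.

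In expanded CD8 cells Tcf7 and Klf2 were lower in the SG library, the members there whose intervals left out 1. Tcf7 had 6 UMIs in 3 of 139 SG cells, or 3.69 CPM (1.35 to 8.03), against 5 UMIs in 4 of 25 CT cells, or 41.5 CPM (13.5 to 97.0), a ratio of 0.0888 (0.0226 to 0.368). Klf2 had 509 UMIs or 313 CPM (286 to 341) in SG cells, against 115 UMIs or 956 CPM (789 to 1147) in CT cells, a ratio of 0.328 (0.267 to 0.405). It was detected in 69 of 139 SG and 17 of 25 CT cells, the cells of higher median depth having the smaller share. Klf2 is not a T cell gene alone: the macrophage and monocyte cells of the SG and CT libraries had 1036 and 995 CPM. Macrophage and monocyte markers summed to 442 CPM in expanded SG and 1720 CPM in expanded CT CD8 cells, with 589 of 719 and 203 of 207 UMIs in a single cell. The Klf2 ratio was 0.357 (0.276 to 0.466) without any cell that held such a UMI.

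The remaining members were less certain in expanded cells, where the CT side held few UMIs. Lef1 (8 and 3 UMIs) had a ratio of 0.197 (0.0474 to 1.16), Id3 (18 and 4 UMIs) one of 0.333 (0.110 to 1.35) and Il7r (84 and 11 UMIs) one of 0.565 (0.300 to 1.18). Ccr7 had 82 UMIs in 22 SG cells and 2 UMIs in 1 CT cell, 50.4 against 16.6 CPM, and the ratio of 3.03 (0.814 to 25.5) rests on those 2 UMIs. Bach2 was at 36.3 and 41.5 CPM, a ratio of 0.873 (0.354 to 2.79). Slamf6 had 10 and 2 UMIs and S1pr1 2 and 1. At least 2-fold differences were found for 4 members lower (Tcf7, Lef1, Klf2 and Id3), against 7.36% of genes, and for 1 higher (Ccr7), against 9.17%.

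**Figure D2:**
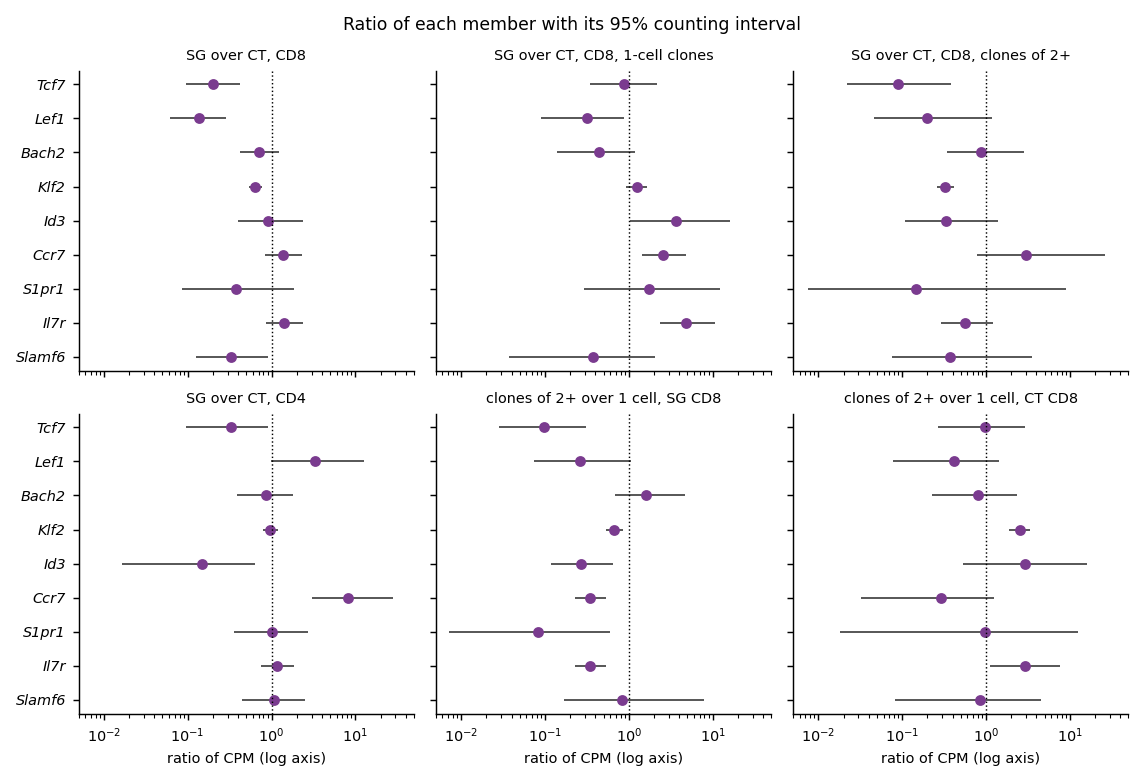
Ratio of CPM (horizontal log axis) for each member in 6 comparisons, with lines for 95% counting intervals and a dotted line at 1. Diet panels give SG over CT, and clone size panels give expanded over unique cells. Tcf7 lies at 0.0888 between the diets in expanded CD8 cells and at 0.879 in unique CD8 cells, and Klf2 and Il7r lie on opposite sides of 1 in the 2 clone size panels.

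Within the SG library, expanded CD8 cells had less of most members than unique ones. Tcf7 was at 3.69 CPM in expanded and 37.4 CPM (17.9 to 68.8) in unique cells, a ratio of 0.0986 (0.0295 to 0.299). Ccr7 was at 50.4 CPM (40.1 to 62.6) in expanded and 146 CPM (104 to 199) in unique cells, a ratio of 0.346 (0.233 to 0.520). Il7r was at 51.7 CPM (41.2 to 64.0) against 150 CPM (107 to 204), a ratio of 0.345 (0.234 to 0.516). The expanded cells had the higher median UMIs per cell, 8585 against 6117.

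Id3 was lower in expanded SG cells as well, with 11.1 CPM against 41.1 CPM in unique cells and a ratio of 0.269 (0.120 to 0.630). Epithelial tumour markers were at 78.1 CPM in expanded and 273 CPM in unique SG CD8 cells, and fibroblast markers at 356 and 498 CPM. Their part in this ratio was not tested. S1pr1 had 2 UMIs in a single expanded cell and 4 UMIs in 3 unique cells, a ratio of 0.0822 (0.00743 to 0.573). Klf2 was lower by less, with 313 against 468 CPM and a ratio of 0.669 (0.549 to 0.821). Lef1 (8 and 5 UMIs) had a ratio of 0.263 (0.0759 to 1.02). Bach2 did not go the same way: it had 36.3 CPM in expanded and 22.4 CPM in unique cells, a ratio of 1.62 (0.700 to 4.58). Slamf6 (10 and 2 UMIs) had a ratio of 0.822 (0.175 to 7.71). In all, 5 members were at least 2-fold lower in expanded SG cells (Tcf7, Ccr7, Il7r, S1pr1 and Id3), against 2.67% of genes, and 0 were higher, against 2.22%. The median log2 ratio of the members was -1.15, against -0.04 over all genes, and no member passed 2-fold with 50 CPM added.

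Shares of cells gave the same order. At least 1 UMI of Tcf7, Lef1, S1pr1 or Slamf6 was found in 17 of 139 expanded SG CD8 cells (12.2%, 95% Clopper-Pearson interval 7.29 to 18.9) and in 11 of 27 unique ones (40.7%, 22.4 to 61.2). Computed for 1000 UMIs drawn from each cell, the shares were 2.14% and 17.7%, with 1 shallower cell left out of each group. In the CT library the shares were 32.0% (15.0 to 53.5) of 25 expanded and 52.3% (36.7 to 67.5) of 44 unique cells, and 12.2% and 18.2% at 1000 UMIs, with 3 and 1 shallower cells left out. Macrophage and monocyte cells, which should lack Tcf7, had it at 0.00420% in the SG and 0.0175% in the CT library at 1000 UMIs. Their median depths were 11854 and 11112 UMIs. That background is for Tcf7 alone and not for the 4 genes together. At 1000 UMIs the same cells had Slamf6 at 1.19% in SG and 0.88% in CT, and S1pr1 at 0.355% and 0.831%. Lef1 was at 0.0655% and 0.06125%. Their joint share was not computed, so the 2.14% of expanded SG CD8 cells has no like background here.

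Within the CT library the picture by clone size was another, from few expanded cells. Klf2 was at 956 CPM (789 to 1147) in expanded and 377 CPM (316 to 447) in unique CT CD8 cells, a ratio of 2.53 (1.96 to 3.28). Il7r had 11 UMIs in each group, 91.4 CPM against 31.2 CPM, a ratio of 2.93 (1.15 to 7.45), which was 1.94 (0.747 to 5.09) without cells of more than 20000 UMIs. Tcf7 was at 41.5 CPM in expanded and 42.5 CPM in unique cells, a ratio of 0.977 (0.278 to 2.83). Ccr7 had 2 and 20 UMIs, a ratio of 0.293 (0.0332 to 1.21), on the same side of 1 as in the SG library. Lef1 (3 and 21 UMIs) was at 0.419 (0.0799 to 1.40), Bach2 (5 and 18) at 0.814 (0.236 to 2.27) and Id3 (4 and 4) at 2.93 (0.546 to 15.7). At least 2-fold differences were found for 3 members higher (Klf2, Il7r and Id3), against 8.92% of genes, and for 1 lower (Ccr7), against 9.2%. The macrophage and monocyte markers were at 1720 and 2212 CPM in the expanded and unique CT cells. Without any cell that held such a UMI the Klf2 ratio was 2.67 (1.92 to 3.73).

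The clones of the SG library differed in which members were detected, and also in total UMIs, from 20370 in clonotype 10 to 569050 in clonotype 1. Clonotype 1 had 37 of the 59 Bach2 UMIs of expanded SG CD8 cells, in 25 of its 61 cells, which is 65.0 CPM (45.8 to 89.6). Clonotype 2 had 9.40 CPM of Bach2 (1.94 to 27.5) in 19 cells. Without clonotype 1 the expanded over unique ratio of Bach2 was 0.927 (0.365 to 2.80), so the value of 1.62 rests on that clone. Clonotype 1 had 0 Tcf7 UMIs in 569050, and 3 UMIs would have been 5.27 CPM.

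Clonotype 2 held 5 of the 6 Tcf7 UMIs of expanded SG CD8 cells, in 2 cells, and the other was in clonotype 13. Without clonotype 2 the expanded over unique ratio of Tcf7 was 0.0204 (0.000471 to 0.144), from that 1 remaining UMI. Ccr7 was found in 5 of 11 clones. It was at 179 CPM (120 to 258) in clonotype 3, where all 29 UMIs were in 2 of 15 cells, at 56.2 CPM (38.5 to 79.4) in clonotype 1, where 14 cells held it, and at 34.5 CPM (17.2 to 61.7) in clonotype 2. Clonotypes 5, 6, 7, 8, 9 and 13 had 0 Ccr7 UMIs. In clonotype 5, 3 UMIs would have been 25.1 CPM. In clonotypes 6, 7, 8, 9 and 13 they would have been 81.5, 78.4, 55.1, 71.75 and 56.4 CPM. Those limits are above the 50.4 CPM of all expanded SG CD8 cells, so the counts of 0 in these smaller clones cannot show a lower level.

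Klf2 was found in all 11 SG clones, from 78.4 CPM in clonotype 7 to 1047 CPM (793 to 1356) in clonotype 8, where 41 of 57 UMIs were in a single cell and all 4 cells held it. The 2 S1pr1 UMIs of expanded SG cells were in a single cell of clonotype 8. Il7r was found in 10 clones and Id3 in 6. In the CT library, clonotype 1 held 3 of the 5 expanded Tcf7 UMIs in 2 cells. Clonotype 3 held all 4 expanded Id3 UMIs, both Ccr7 UMIs and 38 of 115 Klf2 UMIs.

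**Figure D3:**
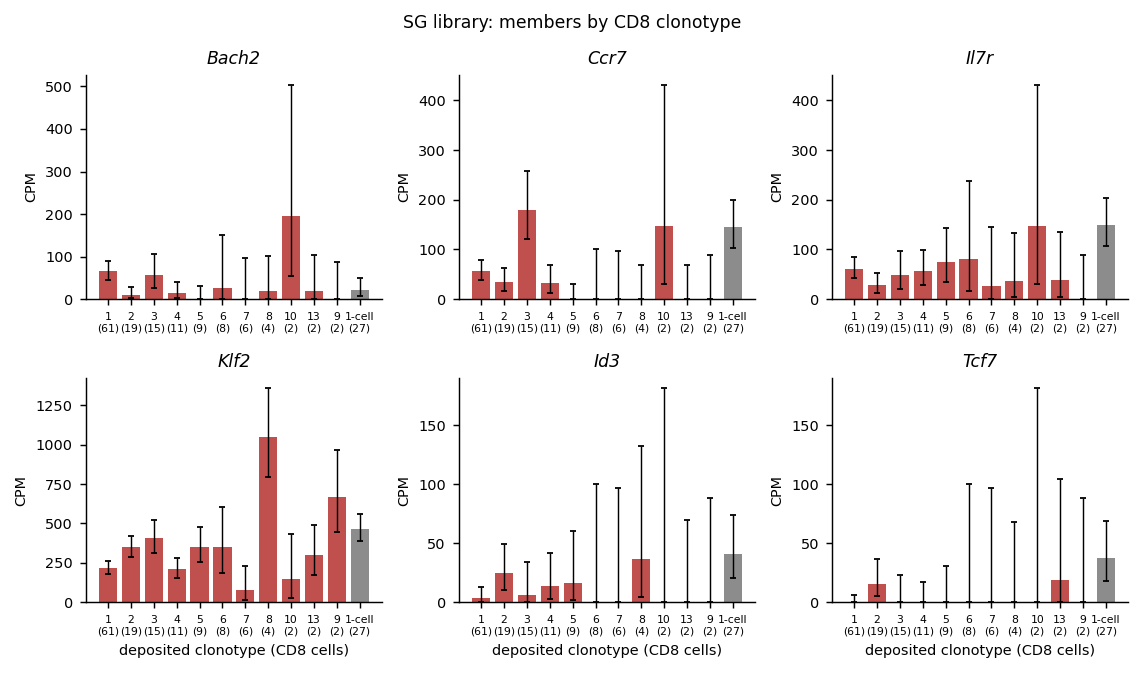
CPM (vertical axes, from 0, differing by panel) of 6 members in each expanded CD8 clonotype of the SG library (red, number of CD8 cells in brackets) and in its unique CD8 cells (grey), with 95% Poisson intervals. Ccr7 stands at 179 CPM in clonotype 3 and at 0 in clonotype 5, Klf2 at 1047 CPM in clonotype 8, and Tcf7 at 0 in clonotype 1.

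The members were also set against Pdcd1, the gene of the inhibitory receptor PD-1, cell by cell. A Pdcd1 UMI was found in 143 of 166 SG and 21 of 69 CT CD8 cells. Of 29 SG CD8 cells with Ccr7, 26 also had Pdcd1 and 4 had Tcf7, while of 8 CT CD8 cells with Ccr7, 1 had Pdcd1 and 5 had Tcf7. Ccr7 was at 67.9 CPM (56.0 to 81.4) in SG cells with Pdcd1 and 30.2 CPM (11.1 to 65.8) in SG cells without. In the CT library it was at 43.6 CPM, from 5 UMIs in 1 cell, in cells with Pdcd1 and at 47.4 CPM (27.6 to 76.0) in cells without. Dendritic cells can also carry Ccr7. Of the dendritic markers Flt3, Xcr1, Clec9a, Fscn1 and Ccl22 the 29 SG cells had only Fscn1, at 19.0 CPM, and 4 were at 0. The other 137 SG CD8 cells had that list at 46.9 CPM. The 8 CT cells with Ccr7 had it at 148 CPM (84.8 to 241), again all Fscn1, and the other 61 CT CD8 cells at 46.6 CPM. Their part in the Ccr7 values was not tested.

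Tcf7 was lower in cells with Pdcd1 in both libraries, from few UMIs and with intervals that overlapped. It was at 6.49 CPM (3.24 to 11.6) in SG CD8 cells with Pdcd1 and 25.2 CPM (8.18 to 58.8) in SG cells without, and at 8.73 CPM, from 1 UMI, in CT cells with Pdcd1 and 53.0 CPM (31.9 to 82.8) in CT cells without. Il7r was at 57.2 CPM (46.4 to 69.8) in SG cells with Pdcd1 and 136 CPM (89.6 to 198) in SG cells without, and at 52.4 CPM (19.2 to 114) in CT cells with Pdcd1 and 44.7 CPM (25.5 to 72.5) in CT cells without. Lef1 was at 5.90 CPM in SG cells with Pdcd1 and 15.1 CPM in SG cells without, and at 61.1 CPM (24.6 to 126) in CT cells with Pdcd1 and 47.4 CPM (27.6 to 76.0) in CT cells without. Of the 11 SG CD8 cells with Tcf7, 2 also had Slamf6 and 6 had Pdcd1. Of the 13 CT CD8 cells with Tcf7, 3 had Slamf6 and 1 had Pdcd1. Having a UMI of a gene depends on depth. The median was 8988 UMIs in SG cells with Pdcd1 and 3231 in SG cells without, and 3986 and 3782 in CT cells. It was 9230 in SG cells with Ccr7 and 7500 in SG cells without, and 7607 and 3369 in CT cells.

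In CD4 cells, Ccr7 and Lef1 were higher and Tcf7 and Id3 lower in the SG library, each from few UMIs. Ccr7 had 25 UMIs in 6 of 32 SG cells, 87.5 CPM (56.6 to 129), against 5 UMIs in 4 of 56 CT cells, 10.6 CPM (3.45 to 24.8), a ratio of 8.24 (3.10 to 27.6). A single SG cell held 13 of the 25 UMIs. Lef1 had 10 UMIs in 8 SG cells and 5 UMIs in 5 CT cells, a ratio of 3.30 (1.03 to 12.3), which was 2.12 (0.637 to 8.04) without cells of more than 20000 UMIs. Tcf7 had 5 UMIs or 17.5 CPM (5.68 to 40.8) in SG cells and 25 UMIs or 53.1 CPM (34.3 to 78.3) in CT cells, a ratio of 0.330 (0.0986 to 0.877). That ratio was 0.606 (0.148 to 1.86) without cells that held a macrophage and monocyte marker UMI.

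Id3 had 2 UMIs in SG and 22 UMIs in CT CD4 cells, a ratio of 0.150 (0.0171 to 0.610), and a single CT cell held 11 of the 22. The other CD4 levels were close: Il7r was at 140 and 119 CPM, Klf2 at 704 and 730, Bach2 at 45.5 and 53.1, Slamf6 at 38.5 and 36.1 and S1pr1 at 28.0 and 27.6, in SG and CT cells. At least 2-fold differences were found for 2 members higher, against 2.79% of genes, and 2 lower, against 6.32%. Class II genes (H2-Aa, H2-Ab1, H2-Eb1 and Cd74) summed to 466 CPM in SG and 40.3 CPM in CT CD4 cells. Haemoglobin genes summed to 0 in SG and 3046 CPM in CT CD4 cells, with 1433 of 1435 UMIs in a single CT cell. The fibroblast markers Col1a1, Col1a2, Dcn and Pdgfra summed to 133 CPM in SG and 845 CPM in CT CD4 cells. The part of these other cell types in the values above was not tested. The SG expanded CD4 group of 3 cells was too small to be described by clone size.

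Foxp3, the factor of regulatory T cells, was detected in 12 SG and 11 CT CD4 cells. Tcf7 had 0 UMIs in both of these sets, where 3 UMIs would have been 29.5 CPM in SG and 25.7 CPM in CT cells. In the CD4 cells without Foxp3 it was at 27.2 CPM (8.83 to 63.4) in SG and 70.6 CPM (45.7 to 104) in CT cells. The SG limit of 29.5 CPM is above that 27.2 CPM, so the SG count of 0 cannot show a lower level. Il7r went opposite ways in the libraries. In SG it was at 226 CPM (143 to 339) in cells with Foxp3 and 92.4 CPM (53.9 to 148) in those without. In CT it was lower with Foxp3, at 34.2 CPM (9.33 to 87.7) against 147 CPM (110 to 193). Cells with Foxp3 held 1 Ccr7 UMI in SG and 0 in CT. In the cells without Foxp3 it had 24 SG UMIs and 130 CPM (83.6 to 194), against 5 CT UMIs and 14.1 CPM (4.58 to 32.9).

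By clone size, CD4 cells could be compared in the CT library alone. There 11 expanded cells had 0 UMIs of Id3 in 145437, against 22 UMIs or 67.6 CPM in 45 unique cells. That is at least 3.28-fold lower when the expanded group is set at 3 UMIs. A single unique cell held 11 of the 22 UMIs, and the fold without it was not computed. Il7r was at 48.1 CPM in expanded and 150 CPM in unique CT CD4 cells, a ratio of 0.32 (0.122 to 0.710). Klf2 was at 756 and 719 CPM, a ratio of 1.05 (0.831 to 1.33). At least 2-fold differences were found for 5 members lower (Tcf7, Ccr7, Il7r, S1pr1 and Id3), against 10.7% of genes, and for 0 higher, against 5.63%.

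Unique CD8 cells were also set against unique CD4 cells of the same library. Klf2 was lower in CD8 cells in both libraries, with ratios of 0.609 (0.483 to 0.765) in SG and 0.525 (0.421 to 0.652) in CT. Lef1 was at 59.6 CPM in CD8 and 9.21 CPM in CD4 cells of the CT library, a ratio of 6.46 (1.93 to 33.8), while in the SG library it had 5 and 8 UMIs and a ratio of 0.612 (0.157 to 2.12). Il7r was lower in CD8 cells of the CT library, with 31.2 against 150 CPM and a ratio of 0.207 (0.0972 to 0.404), while in the SG library it was at 150 CPM in CD8 and 134 CPM in CD4 cells. Id3 had a ratio of 5.39 (1.18 to 50) in SG and 0.168 (0.0421 to 0.494) in CT, where a single CD4 cell held 11 of 22 UMIs. Whether these CD8 over CD4 ratios differ between the libraries was not tested. In SG, 1 member was at least 2-fold higher in CD8 cells (Id3, against 8.91% of genes) and 1 lower (Slamf6, against 3.62%). In CT, 2 members were higher (Lef1 and Ccr7, against 4.87%) and 3 lower (Il7r, S1pr1 and Id3, against 5.97%).

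Cells without a lineage call showed Ccr7 at 59.5 CPM in SG and 10.9 CPM in CT cells, a ratio of 5.44 (2.19 to 15.3). Tcf7 was at 43.8 and 70.3 CPM there, a ratio of 0.623 (0.316 to 1.16), and S1pr1 at 12.5 and 37.5 CPM, a ratio of 0.334 (0.0842 to 0.972). At least 2-fold differences were found for 1 member higher, against 2.08% of genes, and 1 lower, against 3.01%.

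Other genes of the same pathways were described from lists with at least 30 UMIs over all TRB cells. Of 19 further naive and quiescence genes, 1 was at least 2-fold higher, against 1.96% of all genes, and 0 were lower, against 1.7%, in SG CD8 cells. This was Cd28, the costimulatory receptor, at 129 against 44.4 CPM (ratio 2.91, 1.86 to 4.79). Their median log2 ratio was -0.36, against -0.03 over all genes. Of 11 effector and opposing regulators, Tox (230 against 59.2 CPM, ratio 3.89, 2.65 to 5.92) and Bhlhe40 (284 against 88.8 CPM, 3.19, 2.33 to 4.48) were higher. Eomes, a T-box factor of effector and memory CD8 cells, was lower (9 and 18 UMIs, ratio 0.125, 0.0494 to 0.293). Of 20 ligands, partners and relatives of the members, Slamf7 was lower, with 13.2 against 65.6 CPM and a ratio of 0.201 (0.114 to 0.352).

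Of 4 stem-like exhausted T cell genes, Cd200 was higher in SG CD8 cells (41.2 against 14.8 CPM, ratio 2.78, 1.29 to 7.15). The chemokine gene Xcl1 differed by clone size and diet. It had 359 UMIs or 221 CPM in expanded SG CD8 cells and 0 UMIs in 120330 in expanded CT cells, at least 8.86-fold higher when the CT group is set at 3 UMIs. In unique CD8 cells it was at 161 CPM in SG and 386 CPM in CT cells, a ratio of 0.417 (0.289 to 0.592). Within the CT library it was at least 15.5-fold lower in expanded than in unique cells. Within the SG library, 0 of 19 further naive and quiescence genes and 0 of 4 stem-like genes passed 2-fold by clone size, where 2.22% of all genes were higher and 2.67% lower. Runx3, a factor of CD8 cell identity, was higher in expanded SG cells (70.1 against 26.2 CPM, ratio 2.68, 1.26 to 6.81), and Tcf12, which encodes an E protein, was lower (20.9 against 67.3 CPM, 0.310, 0.170 to 0.584).

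The lists had other members past 2-fold in the smaller comparisons. In expanded CD8 cells 3 of 19 further naive and quiescence genes were at least 2-fold higher in the SG library, against 9.17% of all genes, and 2 lower, against 7.36%. The higher ones were Cd28 (134 against 49.9 CPM, ratio 2.69, 1.22 to 7.41), Satb1 (100 and 3 UMIs, 2.47, 0.820 to 12.2) and Dapl1 (34 and 0 UMIs). Gimap3 (181 against 424 CPM, ratio 0.428, 0.317 to 0.588) and Ltb (400 against 823 CPM, 0.486, 0.393 to 0.607) were lower, as was, from the list of partners, Il2rg, the shared chain of the interleukin-7 receptor (245 against 532 CPM, 0.461, 0.354 to 0.611). In CD4 cells, where 2.79% of all genes were higher and 6.32% lower, Cd27 was higher (112 against 25.5 CPM, 4.40, 2.21 to 9.38), while Foxp1 (70.0 against 174 CPM, 0.402, 0.234 to 0.662) and Igfbp4 (56.0 against 159 CPM, 0.352, 0.191 to 0.609) were lower.

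Cells without a contig and without a Cd3d, Cd3e or Cd3g UMI served as the background. Macrophage and monocyte cells (553 SG and 579 CT) had 1 Tcf7 UMI in each library and 0 Ccr7 UMIs, which allows a share of cells with a Ccr7 UMI of up to 0.542% in SG and 0.518% in CT. Their Il7r was at 16.5 and 10.5 CPM, and their Slamf6 at 9.97 and 8.50 CPM, which is close to the 6.34 CPM of SG CD8 cells. Endothelial cells (13 SG and 17 CT) had S1pr1 at 342 and 392 CPM and Id3 at 594 and 616 CPM, far above any T cell group. The 11 CT cells of the dendritic gate had Ccr7 at 1278 CPM and the 32 SG cells at 7.57 CPM.

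A gate on the collagen genes Col1a1 and Col1a2 with Dcn and Pdgfra took in 2704 SG and 2944 CT cells without Ptprc, too many to be named fibroblasts by this gate alone. These cells had Tcf7 at 0.259 CPM in SG and 0.654 CPM in CT, Ccr7 at 0.0304 and 0.0974 CPM, and Klf2 at 498 and 421 CPM. The Klf2 level of SG CD8 cells, 335 CPM, was below that of every SG gate, of which the endothelial gate was lowest at 411 CPM. The 524 CPM of CT CD8 cells lay above the collagen gate and below the 995 CPM of CT macrophage and monocyte cells. Tcf7 was not limited to TRB cells, since the 16 SG cells of the natural killer gate had 4 UMIs in 3 cells, 28.1 CPM (7.66 to 72.0), and 310 SG cells with Ptprc that met no gate were at 7.63 CPM.

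**Figure D4:**
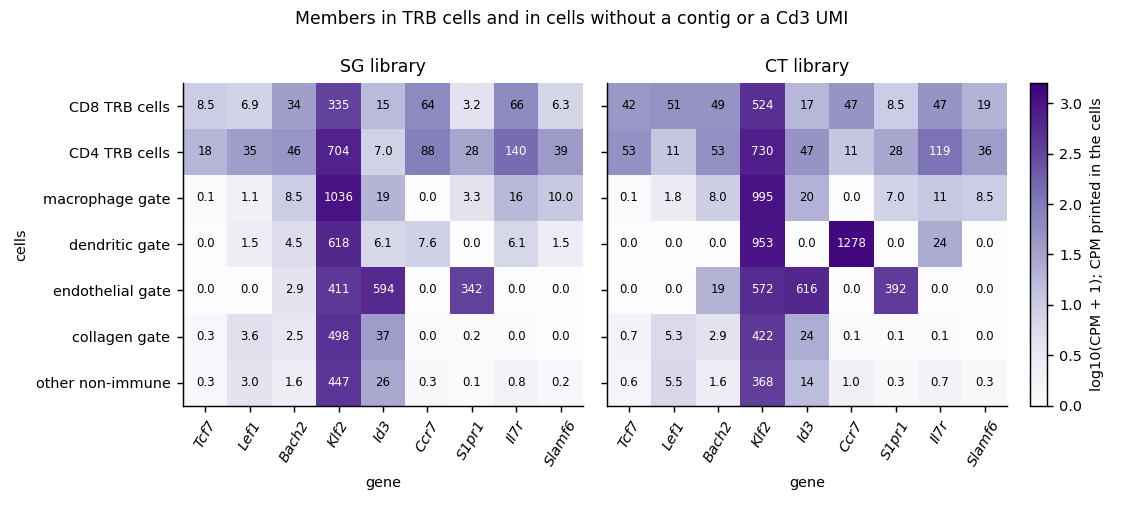
CPM (printed in each cell, shade by log10 of CPM plus 1) of the members in CD8 and CD4 TRB cells and in gated cells without a contig or a Cd3 UMI, SG library at left and CT library at right. Klf2 is high in every row, S1pr1 and Id3 peak in the endothelial gate at 342 and 594 CPM in the SG library, and Tcf7 is under 1 CPM in the macrophage, collagen and other non-immune rows of both libraries.

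Tcf7 and Lef1 were the members at least 2-fold lower in SG CD8 cells with 10 CPM added, although the Tcf7 ratio was 1.12 with each clone equal. TCF1 and LEF1 are known to bind sites with the core CTTTGA or CTTTGT, so their own promoter windows are printed, 250 bases before to 50 after the start, from RefSeq (GRCm38.p6). Windows were listed for 7 of the 9 members, 11 windows in all. Of the 2 windows of Tcf7 and the 4 of Lef1, those with matches are shown, each on the gene's strand, with matches in capitals. Both shown windows lie inside the gene, since Lef1 begins at position 131110297 and Tcf7, on the minus strand, at 52283383. The other windows of these genes, among them those nearest the gene starts, had no match. In Tcf7 they are the reverse complements of the FOXO motif TGTTTAC and the KLF motif CCACACCC, and in Lef1 those of the TCF and LEF cores.
Tcf7 at chr11:52282546-52282845, minus strand: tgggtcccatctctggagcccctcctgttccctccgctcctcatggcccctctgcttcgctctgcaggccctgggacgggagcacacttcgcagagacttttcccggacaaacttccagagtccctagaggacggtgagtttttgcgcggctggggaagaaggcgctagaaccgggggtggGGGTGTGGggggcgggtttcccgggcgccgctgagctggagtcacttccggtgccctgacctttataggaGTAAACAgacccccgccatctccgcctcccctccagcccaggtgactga
Lef1 at chr3:131156044-131156343, plus strand: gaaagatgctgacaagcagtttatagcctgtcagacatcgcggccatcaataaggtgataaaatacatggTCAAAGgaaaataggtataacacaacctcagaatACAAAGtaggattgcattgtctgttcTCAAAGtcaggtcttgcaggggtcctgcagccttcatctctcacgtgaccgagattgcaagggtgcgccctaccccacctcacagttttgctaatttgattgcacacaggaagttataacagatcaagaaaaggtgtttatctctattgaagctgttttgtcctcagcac
On both strands, CTTTGA was found in 16% of 32851 windows of the same length and CTTTGT in 18.7%, and among the members in windows of Bach2 and Lef1 and of Lef1. TGTTTAC was found in 3.65% of windows and CCACACCC in 3.56%, and among the members in Tcf7. These matches describe the letters of the windows only.

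The mean centred log2 level of the 9 members was taken across the 7 groups of at least 10 cells (library, lineage and clone size). It was lowest in expanded SG CD8 cells, at -0.66, and nearly as low in expanded CT CD4 cells, at -0.52. Expanded CT CD8 cells were at 0.10, and the highest value was 0.48, in unique CT CD4 cells. Of 2871 genes with at least 200 UMIs, those most like this mean by Pearson's r were Nrbp1 (0.91), Nfic (0.90), Ifit1 (0.89), Npc2 (0.88) and Atp1b3 (0.88). Tcf7 itself had an r of 0.76 and Bach2 of 0.34, both over the same 7 groups of 2 libraries. With so many genes ranked over so few groups, these values describe likeness only.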

How the data were processed

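UMI counts per gene and cell, and UMI and read counts per receptor contig, were used as deposited. Per the file headers the authors' count matrices came from Cell Ranger 7.1.0. Version 2.2.2 and the build mm10 are given per the submitters' processing notes. A minimum of 300 genes and a limit of 20% mitochondrial UMIs removed no TRB cell. Barcodes were joined to contigs of the same library, and clone sizes are the barcodes of each deposited raw clonotype. Totals left out 653 TCR and immunoglobulin genes. Counts were summed per library, lineage and clone size (Python 3.11.15, numpy 2.4.6, scipy 1.17.1, pandas 2.3.3). UMIs of a cell and cells of a clone are not independent, so intervals cover counting error only. No doublet caller was run. Cells with more than 1 TRB chain (3 SG and 8 CT), more than 20000 UMIs or macrophage marker UMIs were left out as alternatives. Fold calls used CPM plus 10 over 9143 genes. The code for fold calls and intervals was run on simulated independent Poisson counts. These lack the clustering of UMIs by cell and clone, so that run cannot show how the intervals perform in these data. The members and lists were chosen with earlier results of these data known. Named genes are the 9 members, up to 6 genes a list past 2-fold by size, and the 5 genes most like the members' mean. Promoter windows came from RefSeq.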

Additional observations from a re-analysis of the deposited data

Results flagged for a closer look

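Expanded over unique CD8 cells gave opposite directions in the 2 libraries for a pair of members, and the difference between the libraries was not tested, since each diet had 1 library. The Il7r ratio was 0.345 (0.234 to 0.516) in the SG library and 2.93 (1.15 to 7.45) in the CT library, where it rests on 11 UMIs in each group. The Klf2 ratio was 0.669 (0.549 to 0.821) in the SG library and 2.53 (1.96 to 3.28) in the CT library. Without cells of more than 20000 UMIs, the Il7r ratios were 0.319 in SG and 1.94 in CT, and those of Klf2 were 0.453 and 2.63. Without cells that held a macrophage and monocyte marker UMI, they were 0.396 and 2.64 for Il7r, and 0.530 and 2.67 for Klf2. No CT clone held more than 4 CD8 cells, so the SG clones of more cells had no CT clones of like size beside them.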

How the results depend on the processing

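Of 774 single member ratios under alternatives, 734 lay inside the counting interval of the reported ratio, 38 lay outside it and 2, whose reported interval left out 1, changed side of 1. With each clone equal, Tcf7 between the diets in CD8 cells was 1.116 and Klf2 2.195. The ratio of the summed 9 members, mostly Klf2, was 0.671 between the diets in CD8 cells, and became 2.06 with each clone equal and 0.580 without cells over 20000 UMIs. In unique CD8 cells it was 1.38, and became 1.80 with clones by TRB V gene and CDR3 and 2.94 with each cell or each clone equal. In expanded CD8 cells it was 0.389, and became 0.292 with each cell equal and 0.603 without Klf2. In CD4 cells it was 1.01, and became 0.816 without cells over 20000 UMIs and 1.49 without cells with a macrophage marker UMI. By clone size in SG it was 0.528, and became 0.408 with clones by TRB V gene and CDR3, 0.194 with each cell equal, 0.212 with each clone equal, 0.378 without Klf2 and 0.386 without cells over 20000 UMIs. By clone size in CT it was 1.87, and became 0.977 without Klf2. The settings without Klf2, without cells over 20000 UMIs and without cells with a macrophage marker UMI were chosen after seeing the data. With 50 CPM added in place of 10, members past 2-fold between the diets numbered 0 lower in CD8 cells, 1 higher and 0 lower in unique CD8 cells, 0 higher and 1 lower in expanded CD8 cells, and 1 higher and 0 lower in CD4 cells. By clone size they numbered 0 lower in SG, and 1 higher and 0 lower in CT. With 5 CPM added, 2 were lower in unique CD8 cells between the diets, and 2 by clone size in CT. The cause of these moves was not tested. Thinning to 2000 in place of 1000 UMIs kept the direction of the share of cells with Tcf7, Lef1, S1pr1 or Slamf6. No paired analysis was possible because each diet had 1 library. Ratios whose reported interval held 1 are not counted among those that changed side. Tcf7, Lef1, S1pr1 and Slamf6 had at most 24 UMIs in any CD8 group, and Id3 at most 8 in those of the CT library, which limits their precision.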
